A study of Mus musculus with 57 samples.

Results

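Evx1 and Evx2 are the mouse homologues of the fly gene even-skipped and encode homeodomain transcription factors. Evx1 lies beyond Hoxa13 at the 5′ end of the HoxA cluster, and Evx2 lies beyond Hoxd13 at the 5′ end of HoxD. The members described here are all listed peaks of ChIP-seq and ATAC-seq that overlap a 140.0 kb window on chromosome 6 around Evx1 or a 30.0 kb window on chromosome 2 around Evx2, in mm9 coordinates. They were chosen by position alone. The windows held 177 regions out of 591931 in 32 lists: 132 around Evx1 and 45 around Evx2. A region is a stretch that the authors' peak caller listed in 1 library.

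The 32 libraries came from epiblast stem cells (EpiSCs) and wild-type embryos. EpiSCs are cultures derived from the pluripotent epiblast of the E6.0 embryo, and these were propagated with IWP2, which blocks the secretion of Wnt ligands. Stimulation meant removal of IWP2 and addition of either CHIR99021 (Chiron) at 3 µM, which inhibits the kinase GSK3 and so activates the Wnt pathway inside the cell, or the ligand Wnt3a at 125 ng/mL, after feeder-free passages. EpiSCs labelled Wnt3KO gave H3K4me3 at 0, 6, 12 and 72 h of CHIR99021 (1 library each), H3K27ac at the same times (1 each), H3K27me3 at 0 h (2 libraries), 6, 12 and 72 h of CHIR99021 and 5 h of Wnt3a (1 each), Ring1b at 0 h (2), 72 h of CHIR99021 and 5 h of Wnt3a (1 each), and 2 input libraries without antibody. Wild-type EpiSCs gave H3K27ac at 0 h (1) and 24 h (2) of CHIR99021 and ATAC-seq at 0 and 48 h (1 each). Wild-type embryos gave ATAC-seq at E6.0 (2) and E7.2 (2), and the posterior part of E7.5 embryos gave 1 library. The 0 h H3K27me3, Ring1b and input samples are labelled IWP2, while the Wnt3KO 0 h H3K27ac and H3K4me3 samples are labelled as having no stimulation. A further pair of wild-type H3K4me3 libraries carried contradictory time labels and entered no comparison. The labels do not say whether the libraries of a group came from separate cultures or litters, how many embryos were pooled, or whether the Wnt3KO line was 1 clone.

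As background, H3K4me3 marks promoters that are active or poised, and H3K27ac marks active promoters and enhancers. H3K27me3 is the mark laid down by Polycomb repressive complex 2, and Ring1b is the catalytic subunit of Polycomb repressive complex 1. Both complexes cover the promoters of many silent developmental regulators in pluripotent cells, often together with H3K4me3, which is called a bivalent state. ATAC-seq lists open chromatin. Evx1 is known as a gene of the primitive streak that responds to Wnt, Nodal and BMP signals, and Evx2 is known from later limb and spinal cord development.

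The 250 bases upstream of each start are shown because H3K4me3 and Ring1b overlapped at the Evx1 start at 0 h, while at Evx2 they did not. There a Ring1b region crossed the start in the first 0 h library and began 0.04 kb inside the gene in the second. H3K4me3 was not listed at the Evx2 start. H3K27me3 of 0 h did not reach the Evx1 start. In the 2 libraries the nearest upstream regions ended at −0.68 and −0.92 kb, and those inside began at 0.46 and 0.22 kb. The bases come from RefSeq on build GRCm38.p6, not mm9, and both genes matched the promoter table by symbol. They run 5′ to 3′ on the strand of the gene, with CpG dinucleotides in capitals. Evx1 is at chr6:52313248-52313497 on the plus strand and Evx2 at chr2:74659558-74659807 on the minus strand.
Evx1: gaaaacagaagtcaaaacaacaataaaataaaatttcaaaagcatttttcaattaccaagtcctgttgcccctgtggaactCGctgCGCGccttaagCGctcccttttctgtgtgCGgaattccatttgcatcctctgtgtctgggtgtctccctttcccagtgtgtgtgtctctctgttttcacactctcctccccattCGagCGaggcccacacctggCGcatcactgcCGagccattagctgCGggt
Evx2: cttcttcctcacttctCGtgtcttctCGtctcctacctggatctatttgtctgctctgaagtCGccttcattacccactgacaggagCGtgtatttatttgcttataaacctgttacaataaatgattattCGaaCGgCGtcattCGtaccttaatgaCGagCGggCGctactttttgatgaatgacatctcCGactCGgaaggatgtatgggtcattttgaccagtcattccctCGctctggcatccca
The Evx1 stretch held 10 CpG and that of Evx2 held 14, against a median of 6 over 32851 promoters of the same length. At least as many were held by 37.8% of promoters for Evx1 and by 29.4% for Evx2. GC content was 49.6% at Evx1 and 45.6% at Evx2, both under the promoter median of 52.4%. The letters CTTTGA, the core of the TCF/LEF motif, were in neither stretch on either strand, and 13.8% of promoters held them. TTTATG, a CDX core, was also in neither, and 10.8% of promoters held it.

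By assay, the window of Evx1 held 50 ATAC, 32 H3K27me3, 18 H3K4me3, 18 Ring1b and 14 H3K27ac regions. That of Evx2 held 18 ATAC, 16 Ring1b, 9 H3K27me3 and 2 H3K4me3 regions and none of H3K27ac. Neither input list had a region in either window. The regions collapsed into 14 elements around Evx1, of which 10 were listed in at least 2 libraries, and 11 around Evx2, of which 9 were. In each window, the covered length was taken over the gene with 3 kb on each side (10.9 kb at Evx1, and 9.50 kb at Evx2, where the window ends at −2.39 kb). Distances are from the start of the gene, positive in the direction of transcription and negative upstream. The fold enrichment and list position of a region are the authors' values within its own list and are not compared between lists.

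**Figure D1:**
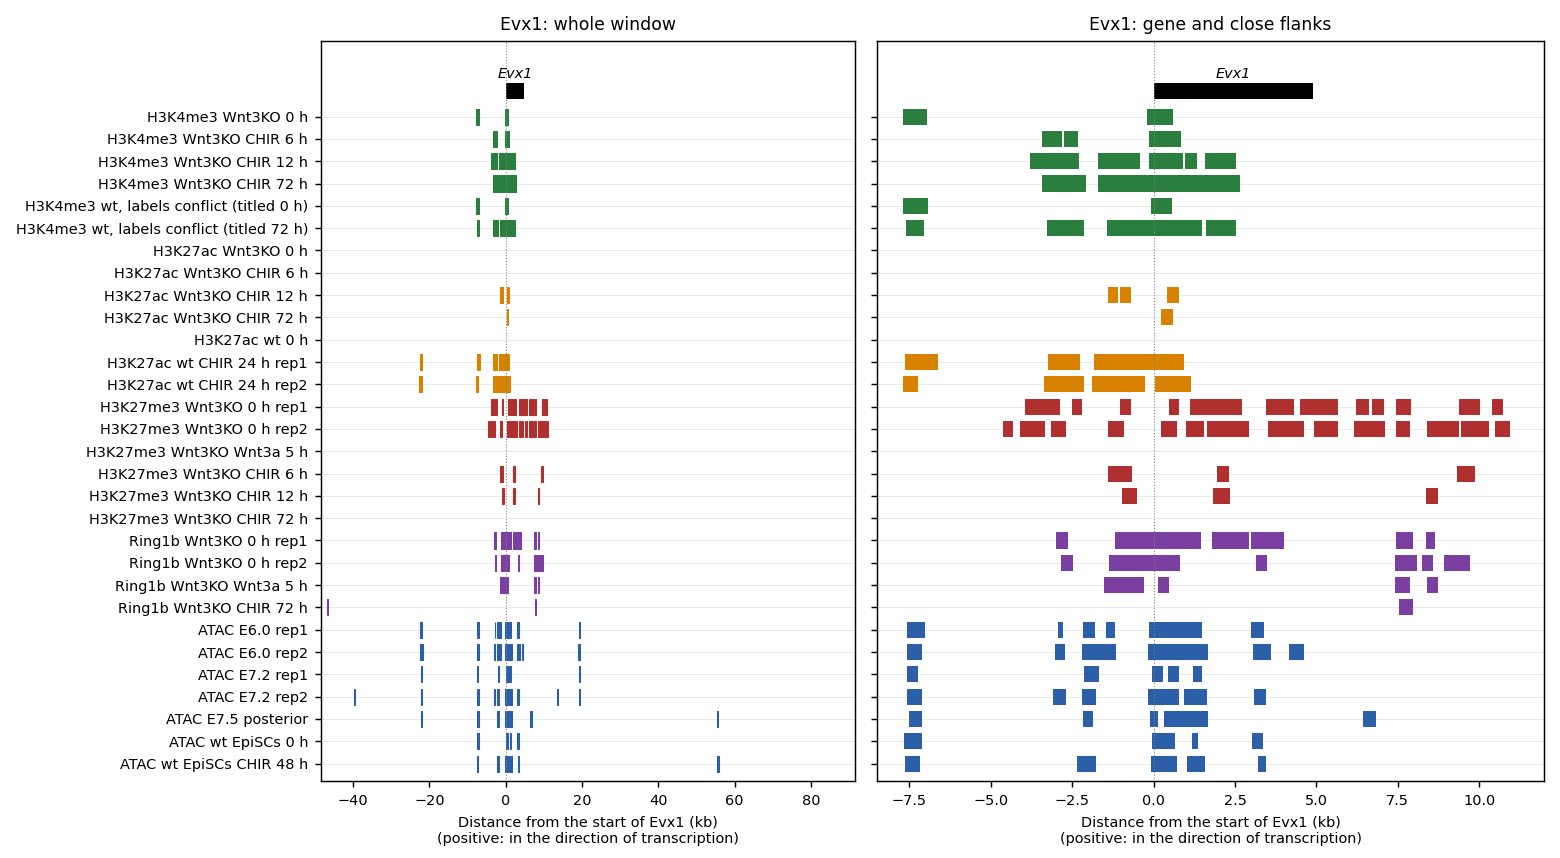
Listed regions around Evx1 in each library, by distance from the gene's start in kb, for the whole window (left) and the gene with its close flanks (right). Each bar is 1 region, the colours stand for the assays, and rows without bars are lists with no region there: H3K27me3 fills both 0 h rows and is empty at 72 h, while H3K4me3 widens from 0 h to 72 h.

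**Figure D2:**
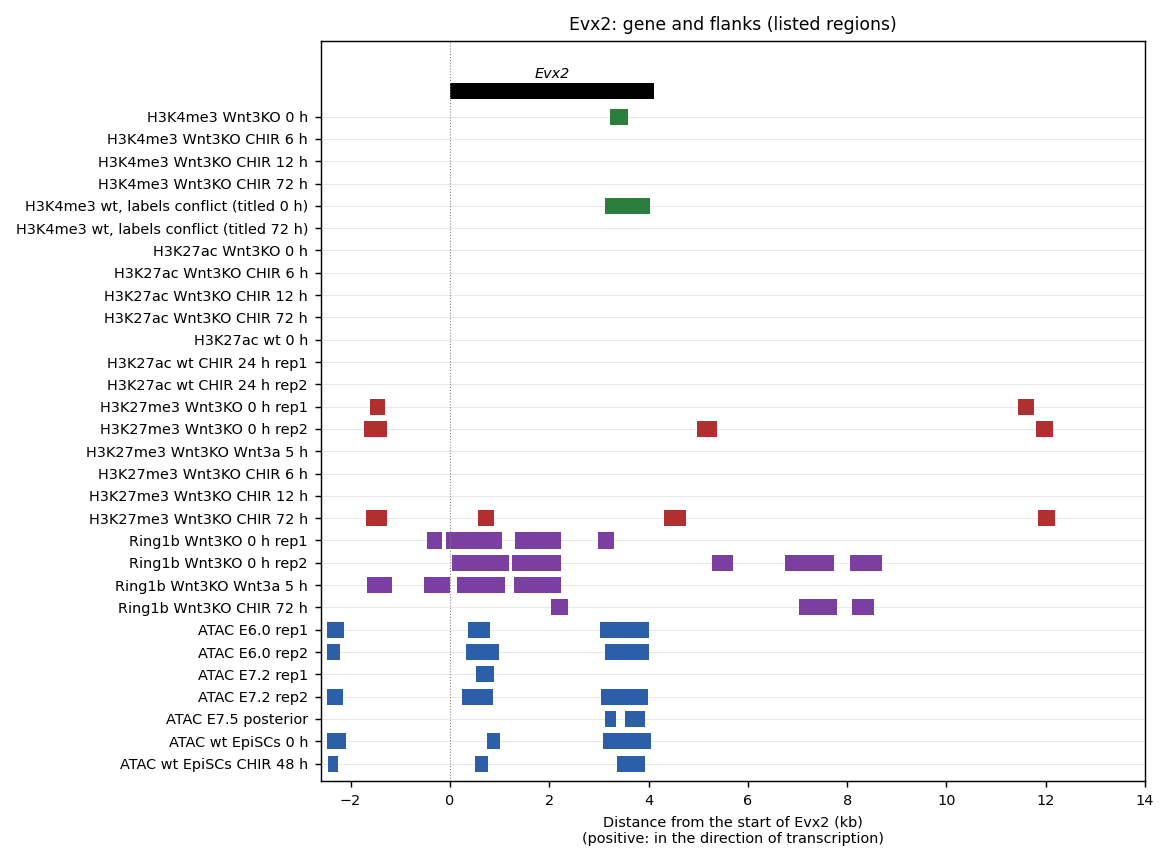
Listed regions around Evx2 in each library, by distance from its start in kb. Each bar is 1 region: Ring1b lies over the first part of the gene at 0 h, H3K27me3 regions are short, all 7 H3K27ac rows are empty, and the only H3K4me3 regions lie 3 to 4 kb inside.

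Differences between 2 times are given as regions gained (in the later list with no overlap of 1 bp in the earlier one) or lost (the reverse). Where a group had 2 libraries, its set was the regions of the first that overlapped the second, and absence meant absence from both. The share of all regions of the same lists gained or lost is given as the background of a comparison. It was computed for full lists with all libraries of a group only. Counts from equal-length lists, a single replicate or another cut therefore have no background beside them. Regions close together in a window can be parts of 1 domain and are not independent. Depth is unknown, since the files hold no counts, and a missing region may be one that was not listed at low depth. Lists differed in length: 33881 to 72433 regions for ATAC, 10161 to 29056 for H3K27ac, 1012 to 6236 for H3K27me3, 16287 to 17714 for H3K4me3, 604 to 2244 for Ring1b, and 253 and 424 for the inputs. They came from 7 processing folders, read from the names in the files. The epiblast marker Sox2 had a region at its start in all 6 H3K4me3, 7 H3K27ac and 7 ATAC lists. Pou5f1 had one in 4 of 6, 4 of 7 and 6 of 7, being absent from H3K27ac of Wnt3KO at 0, 6 and 72 h, from H3K4me3 of Wnt3KO at 72 h and of the wild-type library titled 72 h, and from ATAC of the E7.5 posterior. Brachyury (T), a marker of primitive streak and mesoderm, had an H3K27ac region at Wnt3KO 12 h and in both wild-type 24 h lists and in no other of the 7. Its start had a region in all 6 H3K4me3 and all 7 ATAC lists, those of unstimulated EpiSCs included. In embryo tissue, a changed share of cells and a change within cells cannot be told apart.

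H3K4me3 at Evx1 was listed at every time in Wnt3KO cells, over a length that was longer at each later time. Over the gene with its flanks it covered 811 bp (7.44%) at 0 h, 1605 bp (14.7%) at 6 h, 4363 bp (40.0%) at 12 h and 5297 bp (48.6%) at 72 h. At 0 h a single region at the start, chr6:52263300-52264110, was 811 bp long and 8.51-fold enriched, with 15.6% of the regions of its list below that fold. At 6 h the start region (chr6:52263351-52264343) was 14.4-fold enriched, with 47.6% of its list lower. The 12 h start region, chr6:52263360-52264400, was 15.8-fold enriched, with 54.7% of its list lower. At 72 h a single region, chr6:52261786-52266153, ran from −1.71 kb to 2.65 kb, inside the gene. It measured 4368 bp, longer than 99.7% of the regions of its list, and its enrichment of 25.0-fold was above that of 61.4% of them. The rank by length was thus nearer the top of the list than the rank by fold.

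Upstream of the start, H3K4me3 was listed first at a distance, and the interval between was listed later. At 6 h an upstream stretch appeared as a pair of regions, 609 and 427 bp long, between −3.42 and −2.33 kb. At 12 h it was 1 region of 1520 bp (chr6:52259704-52261223), and a new region of 1284 bp filled the interval from −1.70 to −0.42 kb. The 12 h list also had 374 and 940 bp regions inside the gene, the farther one ending at 2.52 kb. At 72 h the upstream stretch was a region of 1356 bp (chr6:52260073-52261428, 11.0-fold), and the inner parts were joined into the 4368 bp region. Between 6 and 12 h, 3 of the 5 regions of 12 h were gained (background 7.23%), and none of the 3 of 6 h was lost (5.12%). Between 0 and 72 h, 1 of 2 was gained (6.69%) and 1 of 2 was lost (4.83%). The 0 and 72 h lists came from 1 processing folder and the 6 and 12 h lists from another, so the order over all 4 times mixes folders, whose part was not tested. Each time had 1 library, so no test was possible.

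The lost region was a separate H3K4me3 element on the HoxA side, chr6:52255817-52256541, at −7.68 to −6.96 kb. In Wnt3KO cells it was 725 bp long and 8.89-fold enriched at 0 h, as strong within its list as the start region. It was not listed at 6, 12 or 72 h in these cells. Both wild-type H3K4me3 libraries with contradictory time labels listed H3K4me3 there, so the loss is described for Wnt3KO cells only. The same position was open in all 7 ATAC lists, which are wild-type, in EpiSCs with CHIR99021 for 48 h as well as without.

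At Evx2 the H3K4me3 picture was nearly empty. The 0 h list had 1 region, chr2:74494021-74494381, of 361 bp and 7.06-fold enrichment, placed not at the start but 3.23 to 3.59 kb inside the gene, near its far end. Lists at 6, 12 and 72 h had none, so 1 of 1 was lost by 72 h (background 4.83%). No list of Wnt3KO cells had H3K4me3 at the Evx2 start itself.

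H3K27ac was found at Evx1 after CHIR99021 and not before it. In wild-type cells the 0 h list had no region in the window. The 24 h lists had 4 and 6 regions, which covered 3497 and 3600 bp of the gene with its flanks (32.6% ± 0.668, SD, n = 2). In the first library the largest, chr6:52261674-52264426, was 2753 bp long, longer than 98.1% of its list, and 8.09-fold enriched. In the second the same stretch was split into chr6:52261611-52263249 (5.77-fold) and chr6:52263542-52264653 (6.17-fold). Both libraries also had the upstream stretch that H3K4me3 held (chr6:52260268-52261243 at 6.42-fold and chr6:52260147-52261348 at 5.38-fold). The element at −7.3 kb was acetylated in both (chr6:52255883-52256871 at 5.23-fold and chr6:52255808-52256278 at 3.81-fold). A further element, at −22.1 kb toward HoxA, was listed as chr6:52240954-52241611 in the first (4.52-fold) and as 2 short regions in the second.

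All 4 regions of the wild-type 24 h set were gained, against 59.1% of all regions of that comparison, and none was lost (background 14.5%). With lists cut to the same length, 1 of 1 was gained, because the 0 h list was shorter and the weaker 24 h regions fell away. The 0 h list also came from another processing folder than the 24 h lists, and the part of the folder was not tested.

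Wnt3KO cells were sampled for H3K27ac at other times. None was listed at Evx1 at 0 or 6 h. At 12 h there were 3 regions with 1009 bp in all, at 5.74-, 6.78- and 6.78-fold, on both sides of the start between −1.40 and 0.77 kb. At 72 h a single region of 373 bp was listed near the start (chr6:52263724-52264096, 4.54-fold), weaker than nearly all of its list, as 1.74% of regions had a lower fold. It was gained against 0 h (1 of 1, background 17.4%, with 30.4% lost), and it was not listed under a stricter −log10 q of at least 5. H3K4me3 at Evx1 was also at its longest at 72 h in Wnt3KO cells, in a separate library. Wild-type and Wnt3KO cells shared no time under CHIR99021, so no difference between them is drawn.

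No H3K27ac region lay in the Evx2 window in any of the 7 lists, wild-type or Wnt3KO, at any time.

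H3K27me3 lay over Evx1 as a broad domain at 0 h. The 2 libraries listed 12 and 14 regions with 7953 and 9805 bp in all, and over the gene with its flanks 5986 and 6315 bp (56.4% ± 2.13, SD, n = 2). From end to end the regions reached from −4.62 kb to 10.95 kb, well beyond the end of the gene. The strongest were at the 3′ end, chr6:52268008-52269164 at 5.40-fold in the first library and chr6:52268430-52269157 at 6.28-fold in the second. The start was the weaker part: regions within 1 kb of it reached at most 3.31- and 3.86-fold.

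After stimulation most of this domain was not listed. At 6 h of CHIR99021 there were 3 regions: chr6:52262108-52262853 upstream of the start (5.71-fold), chr6:52265437-52265834 inside the gene (5.92-fold) and chr6:52272826-52273376 beyond it (4.66-fold). At 12 h there were again 3, chr6:52262520-52262989 (4.86-fold), chr6:52265316-52265861 (4.88-fold) and chr6:52271869-52272227 (7.31-fold). Those upstream of the start and inside the gene overlapped between the 2 times, and the most distant ones did not, so 1 of 3 was gained (background 51.5%) and 1 of 3 lost (43.1%). The gene with its flanks was covered to 10.5% at 6 h and to 9.32% at 12 h. None was listed at 72 h. Of the 11 regions that both 0 h libraries held, 11 were lost at 72 h, against 58.5% of all such regions. These 11 are neighbouring parts of 1 domain and do not count as separate observations, and 72 h had 1 library. With lists cut to the same length the count was 6 of 6, and against the 0 h replicate processed in 1 folder with the 72 h list it was 14 of 14. No background share was computed for these settings. At 5 h of Wnt3a no region was listed either, and 11 of 11 were lost, but that list held only 1012 regions and 77.6% of all regions were lost (5.53% gained). With equal-length lists this was 3 of 3, and within the folder shared with a 0 h library 12 of 12, again without a background share.

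At Evx2 the H3K27me3 regions were few and short. The 0 h libraries listed 2 and 3 of them, 623 and 1214 bp in all, over 6.16% ± 4.15 (SD, n = 2) of the gene with its flanks. Both had one just upstream of the start (chr2:74498916-74499221 at 2.51-fold and chr2:74498878-74499346 at 2.85-fold) and one beyond the gene (chr2:74485847-74486163 and chr2:74485463-74485812). The lists at 6 and 12 h of CHIR99021 and 5 h of Wnt3a had none. At 72 h 4 regions were listed. They were chr2:74498884-74499301 upstream of the start (3.74-fold), chr2:74496728-74497041 just inside it (4.70-fold), chr2:74492868-74493294 near the end of the gene (4.57-fold) and chr2:74485425-74485779 downstream (4.26-fold).

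In the 72 h list, then, Evx2 held 4 H3K27me3 regions and Evx1 none, while at 0 h Evx1 held by far the longer stretch. The 72 h regions covered 12.2% of Evx2 with its flanks. They were weak within their list, as 1.71% to 24.8% of its regions had a lower fold. The one upstream of the start had a −log10 q of 3.86, under the stricter cut of 5. At 0 h the Evx2 regions ranked at 0.392% to 1.57% of their lists. Of the 4, 2 were gained against both 0 h libraries (background 27.5%) and 0 of 1 was lost (58.5%). With equal-length lists 4 of 4 were gained, since the weak 0 h regions fell out of the shortened lists. Against the 0 h library that shares its folder, 2 of 4 were gained and 1 of 3 was lost. After Wnt3a 1 of 1 was lost (background 77.6%), and 2 of 2 within the folder. The difference between the genes was not tested, as 72 h had 1 library.

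**Figure D3:**
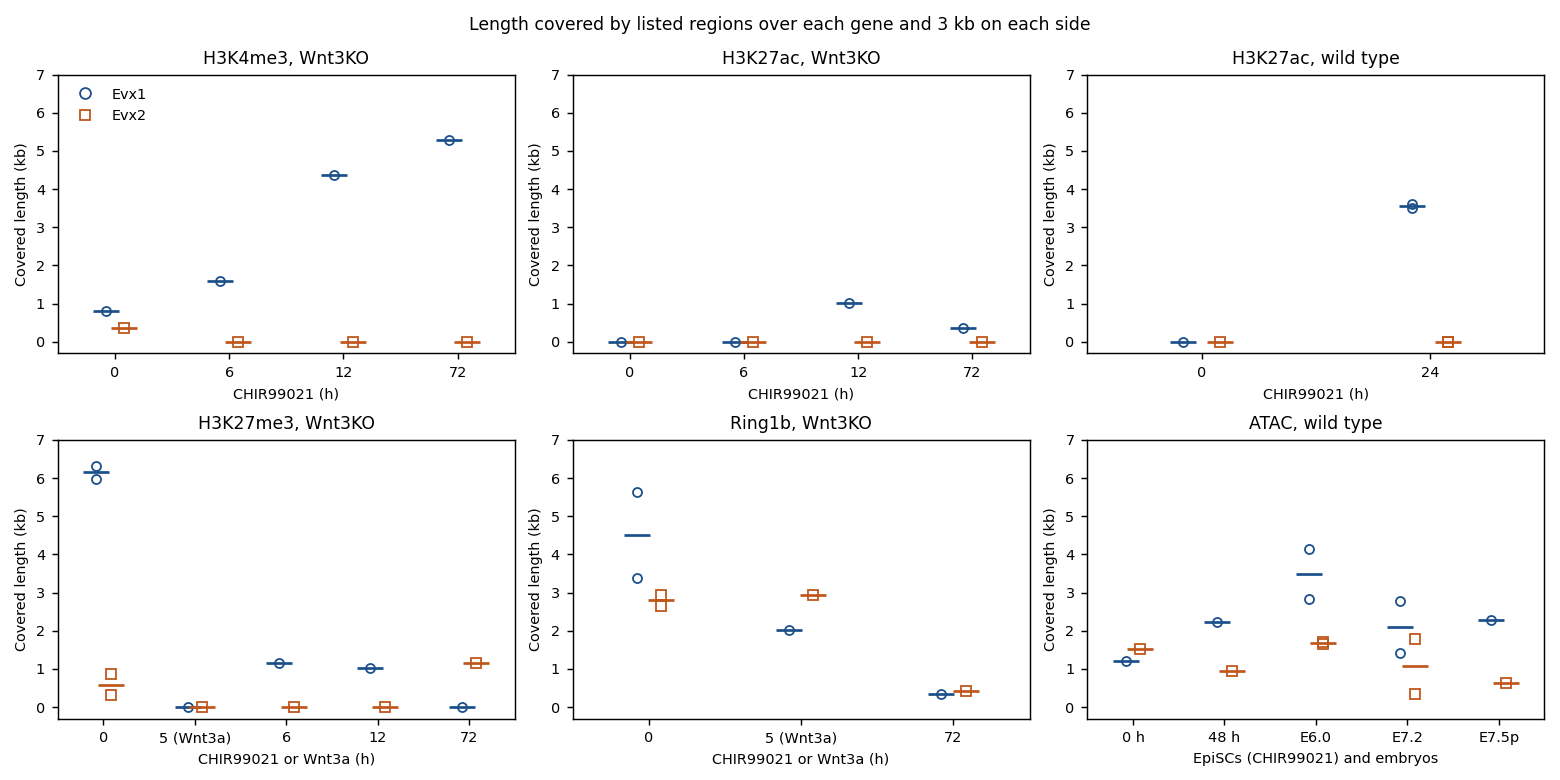
Length covered by listed regions (kb) over Evx1 (circles) and Evx2 (squares) with 3 kb on each side, by assay and time or stage. Each symbol is 1 library and each bar the mean of a group: at Evx1, H3K4me3 goes from 811 bp at 0 h to 5297 bp at 72 h while H3K27me3 goes from 5986 and 6315 bp to 0, and at Evx2 no H3K27ac is listed.

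Ring1b was centred on the Evx1 start at 0 h. The first library listed 6 regions, led by chr6:52262307-52264953 (2647 bp, 6.31-fold), and the second also listed 6, led by chr6:52262126-52264320 (2195 bp, 15.0-fold, above 96.6% of its list). They covered 5631 bp (51.7%) and 3394 bp (31.1%) of the gene with its flanks, so the libraries differed by more here (41.4% ± 14.5, SD, n = 2) than for H3K27me3. Both had a second peak of Ring1b beyond the 3′ end, chr6:52270942-52271479 (5.21-fold) in the first and chr6:52270910-52271592 (12.7-fold) in the second.

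After 5 h of Wnt3a, Ring1b was listed in 4 regions and covered 2032 bp (18.6%). The start region was split into chr6:52261982-52263202 (6.38-fold) and chr6:52263649-52263978 (4.35-fold), and the 3′ peak stood at chr6:52270898-52271378 (8.45-fold, above 85.2% of its list). Of 5 regions shared at 0 h, 2 were lost (background 9.24%) and 0 of 4 were gained (34.1%). Within the folder that the Wnt3a list shared with the first 0 h library, 3 of 6 were lost. H3K27me3 was not listed anywhere in the window in the same treatment.

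At 72 h of CHIR99021 the start of Evx1 had no Ring1b region, and 4 of 5 were lost, against 72.9% of all Ring1b regions. The list was the shortest antibody list, with 604 regions, and with lists cut to that length 1 of 1 was lost. Against the 0 h library that shares its folder, 5 of 6 were lost. What stayed at the gene was the 3′ peak, chr6:52271046-52271460 (6.63-fold, above 63.1% of its list), which covered 3.26% of the gene with its flanks. That element, 7.4 to 8.1 kb from the start, was listed in all 4 Ring1b libraries. The other 72 h region lay at the HoxA end of the window and was gained (1 of 2, background 22.2%).

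At Evx2, Ring1b covered more at 0 h than any other ChIP mark. The 0 h libraries listed 4 and 5 regions and covered 2658 bp (28.0%) and 2943 bp (31.0%) of the gene with its flanks. Both had a pair over the first part of the gene: chr2:74496565-74497694 (1130 bp, 4.13-fold) with chr2:74495373-74496295 (4.63-fold) in the first, and chr2:74496423-74497569 (1147 bp, 3.36-fold) with chr2:74495384-74496367 (4.32-fold) in the second. The second library also had a pair beyond the gene, chr2:74489888-74490871 and chr2:74488904-74489567, at 3.84- and 3.88-fold. None of the 9 ranked high by fold: at most 27% of the regions of the list lay lower.

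After Wnt3a, Ring1b at Evx2 covered a length within the range of the 0 h libraries. There were 4 regions over 2928 bp (30.8%), 0 of 2 shared regions were lost (background 9.24%) and 1 of 4 was gained (34.1%). The gained one was chr2:74498785-74499275, upstream of the start, at 3.28-fold. Within the folder shared with the first 0 h library, 1 of 4 was lost and 1 of 4 gained. At 72 h of CHIR99021 it covered 4.49%. The region over the start was not listed, and a single short one, chr2:74495248-74495588 (341 bp, 4.01-fold), was left inside the gene. The pair beyond the gene was listed at 72 h too, as chr2:74489829-74490588 (6.22-fold, above 56.6% of its list) and chr2:74489078-74489527 (5.62-fold). By count, 1 of 2 was lost (background 72.9%) and 0 of 3 gained (22.2%). With lists cut to equal length the counts turned round, with 0 of 1 lost and 2 of 3 gained. Against the first 0 h library alone 3 of 4 were lost and 2 of 3 gained, and against the second, which shares its folder with the 72 h list, 2 of 5 were lost and 0 of 3 gained.

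At 0 h the 3 marks met just inside the Evx1 start. Ring1b covered all 811 bp of the start region of H3K4me3 in both libraries. H3K27me3 shared 151 and 387 bp with H3K4me3 in the 2 replicates, and all of that lay under Ring1b as well. These shared bases began 0.46 and 0.22 kb inside the gene. H3K27me3 and Ring1b shared 3091 and 2401 bp. At Evx2 the marks lay apart: H3K27me3 and Ring1b shared 0 and 99 bp, Ring1b and H3K4me3 64 and 0 bp, and no base carried all 3.

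The H3K4me3 of 72 h at Evx1, 5724 bp in the whole window, was set against the Polycomb regions of 0 h. Of it, 54.0% and 53.9% was within the 0 h H3K27me3 regions of the 2 libraries. Within the 0 h Ring1b regions it was 67.8% and 45.0%. Of this H3K4me3, 5297 bp lay over the gene with its flanks. That stretch as a whole was covered to 54.9% and 57.9% by the 0 h H3K27me3 regions. The 0 h Ring1b regions covered 51.7% and 31.1% of it. The H3K27me3 overlap was thus no larger than the share of the stretch that the mark covered. No share over all H3K4me3 regions was computed, and spread into Polycomb regions was not tested. The start region of 0 h H3K4me3 at Evx1 overlapped a region in 13 of the 21 ChIP lists with an assigned group, and 1 other of the 16287 H3K4me3 regions of 0 h had the same pattern of lists. The Evx2 region overlapped one in 2 of the 21 lists, and no other region had that pattern. Of these lists 1 was its own, and the other was Ring1b of the first 0 h library, by 64 bp. How often a region has a rare pattern was not counted, so these counts do not set either gene apart.

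ATAC-seq placed 12 open sites around Evx1 and 3 around Evx2. At Evx1 8 were in at least 2 lists and 2 were in all 7: the start (chr6:52263332-52265158) and the site at −7.3 kb (chr6:52255834-52256478). The latter was 13.2-fold enriched in EpiSCs at 0 h and 13.2-fold at 48 h. In embryos it was 10.7- and 7.70-fold at E6.0, 6.34- and 8.14-fold at E7.2 and 7.65-fold in the E7.5 posterior. No ATAC list lacked it, whereas H3K4me3 there was listed at 0 h alone in Wnt3KO cells.

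Sites that were not listed in every sample fell into several patterns. The site at −1.8 kb (chr6:52261140-52262351) was absent from EpiSCs at 0 h, was 7.38-fold enriched at 48 h, and was in all 5 embryo lists. The site 3.3 kb inside (chr6:52266498-52267096) was in both EpiSC lists, both at E6.0 and 1 at E7.2. The site at −2.9 kb was in both E6.0 lists and 1 of E7.2.

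A pair of distant sites was open in embryos and not in EpiSCs. The first, at −22.1 kb toward HoxA (chr6:52241075-52241783), was 8.66- and 9.85-fold enriched at E6.0, 5.26- and 7.01-fold at E7.2 and 3.87-fold in the E7.5 posterior, and it was the most distant element acetylated in wild-type EpiSCs at 24 h. The second, at 19.3 kb beyond the start (chr6:52282556-52283029), was 6.93- and 9.87-fold at E6.0 and 5.37- and 6.64-fold at E7.2, was absent from the E7.5 posterior, and carried no mark in any ChIP list. Of 27403 E6.0 regions found in all 4 lists of E6.0 and E7.2, 16.5% were in neither EpiSC list, and 9.64% were also absent from the E7.5 posterior. Of the 4533 in neither EpiSC list, 5.32% overlapped H3K27ac in both 24 h libraries, as the first site did.

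A site at 55.6 kb, away from HoxA, showed another pattern. It was listed only in EpiSCs after 48 h of CHIR99021 (chr6:52318810-52319377, 568 bp, 12.2-fold) and in the E7.5 posterior (chr6:52318877-52319051, 175 bp, 4.59-fold). Of the 10443 regions gained by EpiSCs at 48 h, 12.2% were likewise in the E7.5 list and in none of the 4 earlier embryo lists. By count, 2 of the 6 Evx1 regions of 48 h were gained, this one and the one at −1.8 kb (background 27.5%), and 0 of 4 were lost (33.8%). With equal-length lists 4 were gained. The covered length over the gene with its flanks was 1212 bp at 0 h and 2239 bp at 48 h, from lists of different folders.

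The 3 sites at Evx2 were the far end of the gene (chr2:74493556-74494581, 3.5 kb inside), a site just inside the start (chr2:74496616-74497376, 0.24 to 1 kb) and a site at −2.3 kb (chr2:74499714-74500088). The site at the far end, where the H3K4me3 of 0 h was listed, was the strongest: 11.0-fold in EpiSCs at 0 h, 6.49-fold at 48 h, 6.54- and 8.79-fold at E6.0, 5.93-fold in 1 E7.2 list and 5.74-fold in the E7.5 posterior. The site just inside the start was in 6 lists and missing from the E7.5 posterior. The upstream site was in 5. At 48 h against 0 h, 0 of 3 were gained (background 27.5%) and 0 of 3 lost (33.8%). Where an overlap of 50% of the smaller region was asked for, 1 was gained and 1 lost. The covered length was 1511 bp at 0 h and 941 bp at 48 h. So at Evx1 the listed open length was longer after CHIR99021, and at Evx2 it was shorter, in 1 library each.

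The open length at the 2 embryo stages overlapped in both windows. In the Evx1 window it was 4262 and 5828 bp at E6.0 (mean 5045 ± 1107 bp, SD, n = 2) and 2587 and 4541 bp at E7.2 (3564 ± 1382 bp, n = 2). The lower E6.0 value lay under the higher E7.2 value. The difference of −1481 bp had p = 0.667 in an exact two-sided permutation test, where 2 against 2 cannot go below 0.333, and it was −1675 bp and −1287 bp within the 2 processing folders. With lists cut to equal length it was −508 bp (p = 0.333, exact permutation test), and it was −504 bp without the first E7.2 library, −698 bp without the second E6.0 library, −2264 bp without the first E6.0 library and −2458 bp without the second E7.2 library. In the Evx2 window it was 1662 and 1696 bp at E6.0 (1679 ± 24.0 bp) and 352 and 1789 bp at E7.2 (mean 1070.5, SD 1016 bp). The difference was −608.5 bp (p = 1, exact permutation test), and it came to −1310 bp in one folder and 93 bp in the other. It rested on the first E7.2 library, whose list was the shortest of the ATAC lists: without it the difference was 110 bp.

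Beside the clusters, H3K4me3 was listed earlier at Evx1 than in the part of HoxA next to it, and over a larger share. Each time had 1 library, and the 4 times mix processing folders. HoxA was taken as 115 kb and HoxD as 106 kb, and each cluster was cut into 3 equal parts, of which the one next to Evx holds its most posterior genes. H3K4me3 covered 7.44%, 14.7%, 40.0% and 48.6% of Evx1 with its flanks at 0, 6, 12 and 72 h, and 0%, 0%, 0% and 15.7% of the near part of HoxA. At Evx2 the order was the reverse at 72 h: H3K4me3 covered 3.80%, 0%, 0% and 0% of the gene with its flanks and 2.70%, 1.08%, 2.62% and 23.7% of the near part of HoxD. H3K27ac at 24 h in wild-type cells covered 32.6% of Evx1 with its flanks and 0% of the near part of HoxA in both libraries. Over the whole of HoxA it covered 11.2% and 9.85%. H3K4me3 covered 5.22%, 4.98%, 6.56% and 19.2% of the whole of HoxA at 0, 6, 12 and 72 h. Neither mark at these times was thus particular to Evx1.

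At 0 h the Polycomb marks covered a larger share of each gene with its flanks than of the near part of the cluster. H3K27me3 covered 56.4% ± 2.13 of Evx1 with its flanks and 2.71% ± 1.82 of the near part of HoxA, a difference of 53.7 percentage points with an SD of 0.313 over the 2 libraries. For Evx2 the difference was 3.38 points (SD 1.91), from 6.16% ± 4.15 against 2.78% ± 2.25. Ring1b covered 41.4% ± 14.5 of Evx1 and 8.96% ± 0.799 of the near part of HoxA (difference 32.4 points, SD 13.7), and 29.5% ± 2.12 of Evx2 and 8.27% ± 2.45 of the near part of HoxD (21.2 points, SD 4.57). Each difference was above 0 in 2 of 2 libraries, but the regions compared differ in length and gene density, and no test was run on 2 libraries.

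**Figure D4:**
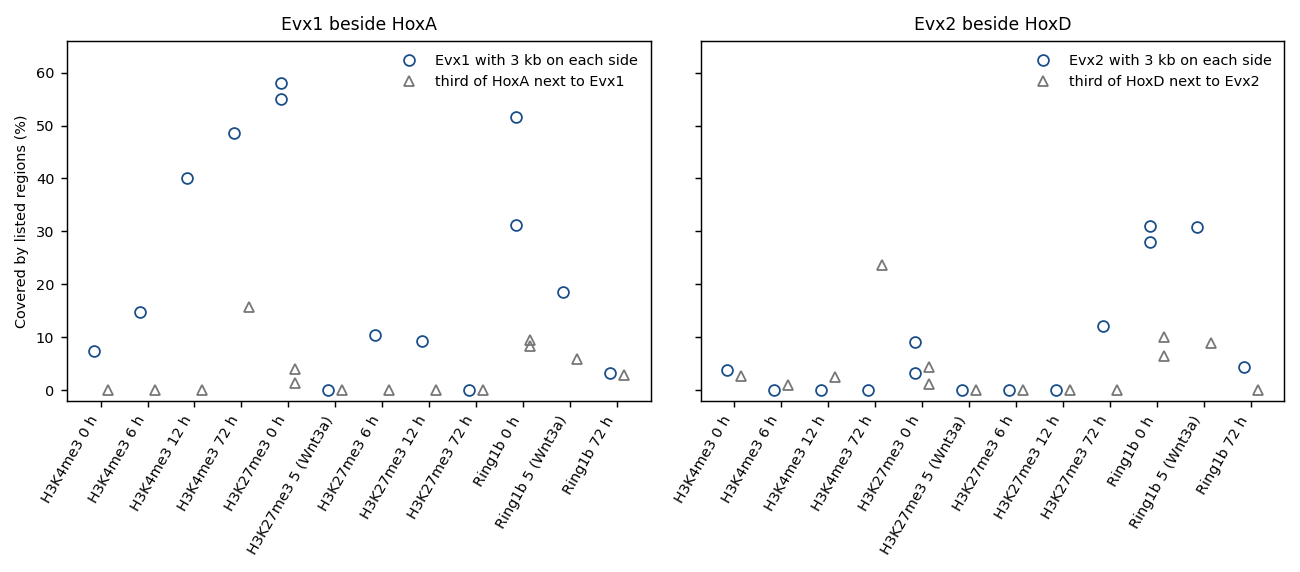
Share of bases covered by listed regions (%), over Evx1 or Evx2 with 3 kb on each side (circles) and over the part of HoxA or HoxD next to it (1 of 3 equal parts, triangles), in Wnt3KO EpiSCs by mark and time. Each symbol is 1 library: at 72 h H3K4me3 covers 48.6% of Evx1 against 15.7% of the near part of HoxA, and 0% of Evx2 against 23.7% of the near part of HoxD.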

How the data were processed

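The 32 deposited peak lists (23 ChIP-seq, 2 input, 7 ATAC-seq), 1 per library, were used, and 25 4C-seq samples were not analysed here. Per the submitters' processing notes the build was mm9, and ChIP-seq and ATAC-seq lists share MACS2 2.1.0 and SAMtools 0.1.19, with Bowtie 1.1.0 for ChIP-seq, and with Bowtie2 2.1.0 and cutadapt 1.8.1 for ATAC-seq. Tools of both wild-type 24 h H3K27ac lists and of the unassigned H3K4me3 pair were not given in the sources used here. In the deposited lists, the fold enrichment (a ratio of signal over background), the −log10 p and −log10 q values and the score are the authors' peak caller's, per the narrowPeak layout. The deposited score was not used. Every listed peak had a −log10 p of at least 5.00. No counts are given, so depth and its precision are unknown.

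Regions overlapping either window were taken from each list with Python 3.11.15 and numpy 2.4.6, plotted with matplotlib 3.10.9, and the overlap steps were tested on simulated data. Overlap meant 1 bp. The Evx2 position and the HoxA and HoxD bounds in mm9 were set from general knowledge of the assembly. Elements named are those at a gene with 3 kb on each side or listed in at least 2 libraries. An exact permutation test compared E6.0 with E7.2, and other comparisons had 1 library on a side and no test. SDs measure the spread between deposited libraries, which may be technical. The p-value is the share of relabellings of the same libraries with a difference at least as large. Alternatives were a −log10 q of at least 5, lists cut to equal length by −log10 p, a 50% overlap, and leaving out each replicate. Members, lists and settings were chosen with earlier results of these data known.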

Additional observations from a re-analysis of the deposited data

Results flagged for a closer look

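The pair of wild-type H3K4me3 libraries entered no comparison, because the title of each gives one time and its stimulation field the other. Both had regions in the windows, where the inputs had 0. The library titled 0 h, whose field says 72 h of CHIR99021, held 2 regions around Evx1 and 1 around Evx2. At Evx1 they were chr6:52255810-52256558 (14.4-fold), at the element at −7.3 kb, and chr6:52263414-52264053 (5.01-fold), at the start. The Evx2 region was chr2:74493573-74494486 (8.61-fold), 3.13 to 4.04 kb inside the gene. The library titled 72 h, whose field says IWP2, held 4 regions around Evx1 and 0 around Evx2. Those were chr6:52255896-52256460 (7.84-fold), chr6:52260232-52261346 (9.11-fold), chr6:52262083-52264987 (27.9-fold, 2905 bp) and chr6:52265107-52266022 (6.65-fold). Over Evx1 with its flanks the library titled 0 h covered 5.87% and that titled 72 h covered 42.8%. A Pou5f1 region was in the list titled 0 h and not in that titled 72 h. No condition was assigned to either from these values.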

How the results depend on the processing

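The counts of gained and lost regions were recomputed under each alternative. A count moved where it changed by over 1.5 times, and the ATAC length differences were judged by direction and p-value alone. With a −log10 q of at least 5, 5 moved and 37 did not. H3K27ac of Wnt3KO at 72 h against 0 h had 0 gained at Evx1, H3K27me3 at 12 h against 6 h had 0 lost at Evx1, Ring1b at 72 h had 2 lost at Evx2, H3K27me3 after Wnt3a had 0 lost at Evx2 and ATAC at 48 h had 1 lost at Evx2. With equal-length lists 10 counts moved and 32 results did not by these rules, among them the ATAC length difference at Evx1, whose size went from −1481 to −508 bp. At Evx1, 1 was gained for wild-type H3K27ac, 6 were lost for H3K27me3 at 72 h, 1 was lost for Ring1b at 72 h, 3 were lost for H3K27me3 after Wnt3a and 4 were gained for ATAC at 48 h. At Evx2, 4 were gained for H3K27me3 at 72 h, 2 were gained and 0 lost for Ring1b at 72 h, 0 were lost for H3K27me3 after Wnt3a and 1 was gained for ATAC. Fewer regions enter these lists, and no background share was computed under any alternative. With a 50% overlap, ATAC at Evx2 had 1 gained and 1 lost. Lists give no counts, so what depth limits could not be set.

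Leaving out each replicate in turn moved counts at Evx2 and none at Evx1. Lost H3K27me3 regions at 72 h were 1 to 1 (0 with both), lost Ring1b regions at 72 h 2 to 3 and gained ones 0 to 2. After Wnt3a, gained Ring1b regions were 1 to 2, lost ones 1 to 3, and lost H3K27me3 regions 2 to 3. The cause was not tested. The ATAC length at E7.2 minus E6.0 ranged from −2458 to −504 bp at Evx1 and from −1327 to 110 bp at Evx2, where it turned positive without the first E7.2 library. With the replicate number as a block, the difference was −1481 bp at Evx1 and −608.5 bp at Evx2, as without it. The numbers followed the processing folder and the correlation of same-numbered libraries was −0.0637 over 94512 regions, so they were not taken as pairs.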
